A study of Mus musculus with 8 samples.

Results

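Mature adipocyte nuclei, the nuclei of the fat-storing cells of adipose tissue, were picked out of single-nucleus RNA libraries of visceral white adipose tissue from 8 mice. A droplet barcode was considered when it held at least 1000 unique molecular identifiers (UMIs, each tagging 1 captured RNA molecule) from no fewer than 300 genes, with mitochondrial UMIs at 5% or less. It was called an adipocyte nucleus when at least 4 of the 8 adipocyte genes Adipoq, Plin1, Plin4, Lipe, Pnpla2, Cidec, Acsl1 and Ghr had a UMI. In addition, the summed UMIs of Plin1, Plin4 and Cidec had to exceed those of each of 3 other lineages: stromal progenitors (Pdgfra, Dcn, Col3a1), macrophages (Adgre1, Csf1r, Mertk) and endothelium (Flt1, Ptprb, Cyyr1). Fewer than 3 of these 9 other-lineage genes could be detected. The rule found 8734 adipocyte nuclei among 77987 barcodes. The nuclei were thus chosen by the UMIs of 17 genes, whose levels are given as description only.

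The adipocyte stores triglyceride in 1 large droplet and releases it as fatty acids when noradrenaline acts on beta-adrenergic receptors, a process called lipolysis. Insulin opposes lipolysis and drives glucose uptake and fat synthesis, while growth hormone acts through its receptor Ghr, the kinase Jak2 and the transcription factor STAT5. In obesity, visceral fat cells enlarge and become less responsive to insulin and catecholamines.

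All mice carried mCherry, a red fluorescent protein, at 1 allele of the p21 locus (Cdkn1a, a cell-cycle inhibitor), so the controls too have an altered p21 allele. Mice with genotype p21+/mCherry ate a standard diet (mCherry SD) or a high-fat diet (mCherry HFD). On the high-fat diet there were also p21+/mCherry-Tert mice (Tert HFD) and p21+/mCherry-TertCi mice (TertCi HFD), in which the p21 promoter drives mTert or mTertCi. Tert is the catalytic subunit of telomerase, and the labels do not spell out TertCi. Each group had 2 mice, written below in the order of their label numbers: rep144 and rep146 (mCherry SD), rep128 and rep129 (mCherry HFD), rep134 and rep136 (Tert HFD), rep138 and rep140 (TertCi HFD). Their age is not given in the sources used here. The labels name visceral white adipose tissue while the series' design text names the stromal vascular fraction, which would hold few fat cells. The design text also gives p21+/- where the labels give p21+/mCherry. The labels were followed.

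Adipocyte nuclei were rare in the mCherry HFD mice. They were 23.2 and 27.1% of barcodes in mCherry SD, 0.496 and 0.860% in mCherry HFD, 4.60 and 20.8% in Tert HFD, and 17.7 and 14.6% in TertCi HFD. In numbers this was 1478 and 2651 nuclei, 109 and 39, 607 and 672, and 2430 and 748. The group means were 25.2% ± 2.75 (SD, n = 2), 0.678% ± 0.258, 12.7% ± 11.4 and 16.1% ± 2.23. Both mCherry HFD mice lay below all 6 other mice, and their exact Clopper-Pearson 95% intervals, which cover counting error only, were 0.407 to 0.597% and 0.612 to 1.17%. The 2 Tert HFD mice differed most within a group. An exact permutation test over the 4 groups on log2 percentages gave p = 0.0667, where 0.00952 was the smallest value these 2520 relabellings allow. With a UMI minimum scaled to each library the shares were 33.8 and 34.6, 1.16 and 1.29, 8.73 and 20.8, and 29.8 and 28.1% in the same order, with exact permutation p = 0.00952. With at least 2000 UMIs per nucleus the p was 0.105. Fewer fat cells, less RNA per fat cell nucleus and more nuclei of other cells cannot be told apart in such shares. Macrophage nuclei, picked by their own genes of the rule, numbered 375 of 6368 and 564 of 9784 barcodes in mCherry SD. They were 9377 of 21996 and 1204 of 4536 in mCherry HFD. In Tert HFD they were 2993 of 13202 and 301 of 3233, and in TertCi HFD 1964 of 13728 and 783 of 5140.

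**Figure D1:**
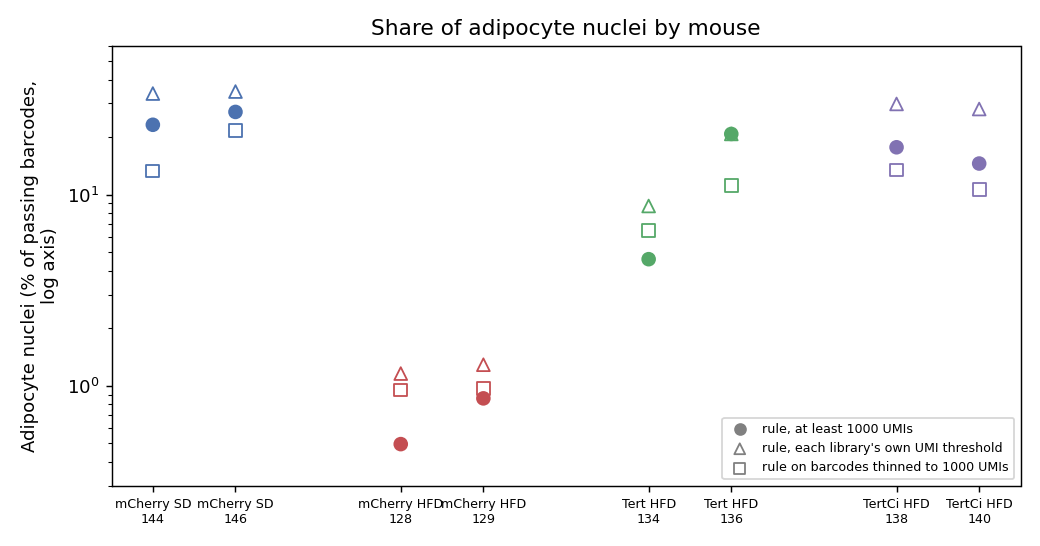
Share of passing barcodes called adipocyte nuclei, in percent on a log axis, for each of the 8 mice by group: filled circles with at least 1000 UMIs, open triangles with a UMI minimum scaled to each library, open squares with barcodes thinned to 1000 UMIs. The mCherry HFD mice lie at 0.496 to 1.29% by all 3 measures, below every other mouse.

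The rule kept a smaller part of the candidate barcodes in both mCherry HFD mice than in any other mouse. Barcodes with 4 or more adipocyte genes numbered 2401 and 4476 in mCherry SD, 675 and 162 in mCherry HFD, 2154 and 971 in Tert HFD, and 3855 and 1293 in TertCi HFD. The rule kept 61.6 and 59.2%, 16.1 and 24.1%, 28.2 and 69.2%, and 63.0 and 57.8% of them. In mouse rep128 it turned away 319 barcodes in which the adipocyte sum was not the highest and 247 with 3 or more other-lineage genes. The adipocyte nuclei of the mCherry HFD mice were also deep, with a median of 9788 and 5047 UMIs against 2834 and 2899 in mCherry SD, 4759 and 2541.5 in Tert HFD, and 4544.5 and 4530 in TertCi HFD. When every barcode was thinned to 1000 UMIs before the rule was applied, the shares were 13.3 and 21.7, 0.950 and 0.970, 6.50 and 11.2, and 13.5 and 10.6%, with exact permutation p = 0.0381. Both mCherry HFD mice were again the lowest.

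The label was also looked at on genes the rule did not use, where the selection itself favours a difference. Adipocyte nuclei had to hold few other-lineage genes. The progenitor and macrophage nuclei had to hold fewer of the rule's adipocyte genes than an adipocyte nucleus needs. The sums below are therefore description and not an independent test of the label. Over 10 adipocyte genes outside the rule (among them Pparg, Cebpa, Fabp4, Cd36, Lpl, Lep, Dgat2, Pde3b and Adrb3), the adipocyte nuclei held 8120 to 14567 CPM (UMIs per 1000000 UMIs of the nuclei) in the 8 mice, against 1089 to 2452 in progenitor nuclei, 2310 to 4535 in macrophage nuclei and 4421 to 9638 in endothelial nuclei. The endothelial range overlaps that of the adipocyte nuclei, and endothelium also expresses Fabp4 and Cd36, while within each mouse the adipocyte nuclei were the higher. The 12 macrophage genes outside the rule summed to 399.6 to 867 CPM, against 7321 to 9730 in macrophage nuclei, with Mgam at 0 in mouse rep144. The 10 progenitor genes outside the rule summed to 261 to 676 CPM, against 5379 to 8886 in progenitor nuclei. Free RNA, read from barcodes with 10 to 100 UMIs, held 5476 to 9776 CPM of the adipocyte genes, so RNA of these genes also lay outside nuclei in every library. The sum in nuclei with at least 1000 and under 2000 UMIs was lower than in those with 5000 or more in 5 mice. In mice rep144, rep128 and rep129 it was higher, with only 6 such shallow nuclei in rep128 and 1 in rep129. It was 8850 CPM in these shallow nuclei of mouse rep140, beside 9188 in its free RNA, and 9759 in those of mouse rep144, beside 6840.5. Macrophage genes stood at 2909 CPM in the shallow and 482 in the deep nuclei of mouse rep134, and at 422 and 895 in those of mouse rep144. The macrophage genes of free RNA stood at 1285 and 1190 CPM in mCherry SD and at 5470 and 5409 CPM in mCherry HFD. Free RNA differed the same way as the nuclei for many genes. Of the 41 genes that the naming rule gave as higher on the diet 22 were at least 2 times higher in free RNA too, and of the 31 lower 22 were at least 2 times lower and 1 higher. For Tert this held for 6 of 8 higher and 3 of 11 lower genes, with 2 of the lower ones going the other way, and for TertCi for 16 of 24 higher, with 1 going the other way, and 13 of 17 lower. Free levels are printed for some of these genes, and their part in the results was not tested. The free RNA barcodes held 108012 (rep134) to 3028609 (rep136) UMIs per mouse, with 158691 in rep128 and 2590564 in rep129. Group levels of free RNA are unweighted means of the 2 mice, so low ones are coarsely measured.

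**Figure D2:**
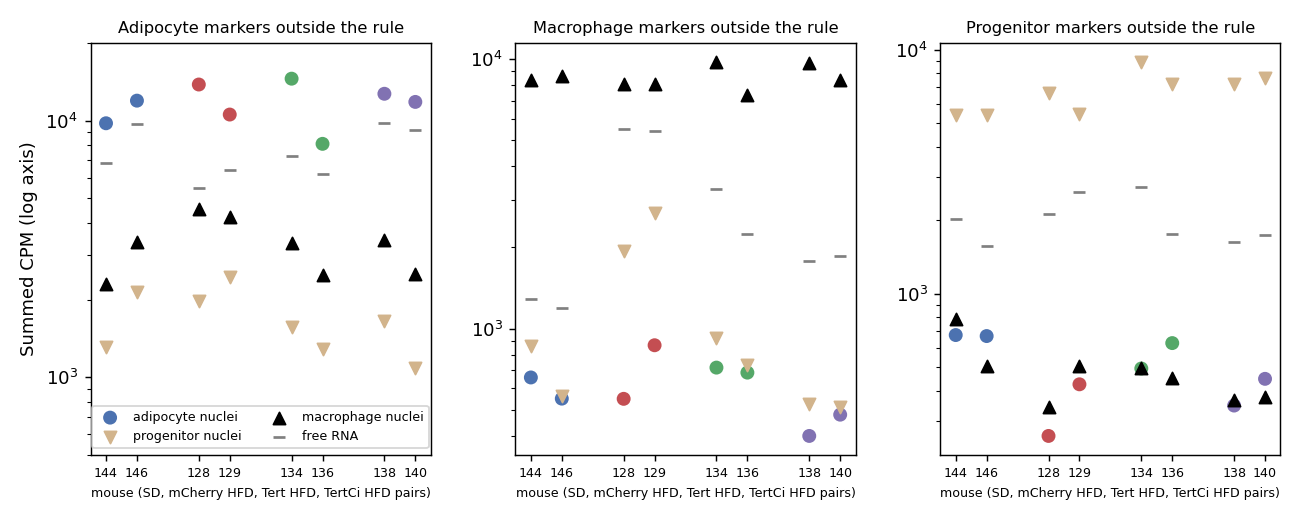
Summed CPM, on log axes, of the adipocyte, macrophage and progenitor genes outside the rule (left to right) in adipocyte nuclei (circles), progenitor nuclei (downward triangles), macrophage nuclei (upward triangles) and free RNA (dashes), for each of the 8 mice. In the left panel adipocyte nuclei sit at 8120 to 14567 CPM, above progenitor and macrophage nuclei in every mouse, and free RNA at 5476 to 9776.

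Among the genes of the rule, the growth hormone receptor Ghr read 25605 and 16229.6 CPM in mCherry SD, then 9868 and 12427 in mCherry HFD, 13586 and 15573 with Tert and 18283 and 14297 with TertCi on that diet. Acsl1, which activates fatty acids to their coenzyme A esters, read 705 and 1121 CPM in mCherry SD, then 2853 and 1686 in mCherry HFD, 2720.0 and 738 with Tert and 2119 and 1924 with TertCi on that diet. Both mCherry HFD mice lay below both mCherry SD mice for Ghr and above them for Acsl1. The droplet coat protein Plin1 read 471 and 538 CPM in mCherry SD, then 983 and 612 in mCherry HFD, 825 and 469.7 with Tert and 588 and 536 with TertCi on that diet, and the adipokine Adipoq 99.2 and 146.2 CPM in mCherry SD, then 103 and 69.6 in mCherry HFD, 166 and 74.8 with Tert and 178 and 143 with TertCi on that diet. For Adipoq the mCherry HFD mice overlapped with the mCherry SD and Tert HFD mice and lay below both TertCi HFD mice. At the edge of the rule, the 354 nuclei of mouse rep144 with exactly 4 markers held 8769 CPM of the adipocyte genes outside the rule, and 198 otherwise like barcodes with 3 markers held 7466. In mouse rep146 these were 6327 CPM in 516 nuclei and 4582 in 525 barcodes, and in mouse rep128 8809 CPM in 3 nuclei and 3155 in 17 barcodes.

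Gene expression was compared on the UMIs of adipocyte nuclei summed per mouse, with edgeR's quasi-likelihood test and Benjamini-Hochberg adjustment over 14845 genes. Differences are log2 fold changes. Their standard errors were worked back from the test, as the absolute log2 fold change over the square root of its F statistic. A gene is said to have risen or fallen where the adjusted p was under 0.05. The sums held 5256561 and 10013032 UMIs in mCherry SD, 1230386 and 228407 in mCherry HFD, 3819951 and 2060475 in Tert HFD, and 13977898 and 4233536 in TertCi HFD. At the depth of mouse rep129, 1 UMI is worth several CPM, so low genes are coarsely measured there. The diet comparison and the Tert and TertCi comparisons share the 2 mCherry HFD mice, so a gene with an unusual level in these 148 nuclei moves in all 3. With 2 mice a group, levels that do not overlap are common: this held for 60.7% of all genes between the diets, 51.0% for Tert, 57.1% for TertCi and 33.0% between Tert and TertCi. In the replicate pairs, counts differed by 2.25 (mCherry HFD) to 37.2 (Tert HFD) times the variance of counting alone. This ratio grows with the number of UMIs, which was smallest in mCherry HFD. The median absolute log2 difference between the mice of a pair, counting error included, was largest in mCherry HFD. It was 0.554 there, 0.272 in mCherry SD, 0.389 in Tert HFD and 0.261 in TertCi HFD.

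On the high-fat diet, adipocyte nuclei held less RNA of the beta-3 adrenergic receptor Adrb3 and of Pde3b, a phosphodiesterase through which insulin restrains lipolysis. They also held less RNA of 4 of 16 insulin signalling genes, of Cish and Jak2 in the growth hormone pathway and of 5 of 20 adipogenic factors. They held more RNA of the lipolysis inhibitors G0s2 and Adora1, the droplet coats Plin2 and Plin5, 5 of 18 stress genes and 6 of 17 hypoxia, inflammation and matrix genes. Most members of these lists did not pass. Of the 14845 genes, 2252 passed (15.2%), 1341 higher (9.03%) and 911 lower (6.14%) in mCherry HFD than in mCherry SD. With library totals alone as the scale, 1298 were higher and 454 lower, so 74.1% of calls were higher in place of 59.6%, and the median of all genes moved from -0.04 to 0.19. Without the genes whose level in the higher group was under 2 times that of free RNA, 469 were higher and 44 lower, which is 91.4% higher. The genes so left out included Adrb3, Pik3r1, Irs1 and Cish among the falls and Plin2 among the rises, while Adora1 stayed. The calls rest on mouse rep128. Without it 14 genes passed, among them Adrb3 and Esrrg, with the lone mouse rep129 assumed to vary like the other groups, and without mouse rep129 a count of 932 passed. Where leaving out a mouse of the groups compared moved a printed difference within adipocyte nuclei by over 1.5 times, the value without it follows the adjusted p, except where the remaining mouse of a group had no UMI, which gives no fold.

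The lipolysis list was split. Of 15 tested genes 4 passed, the activating receptor and a cyclic AMP phosphodiesterase lower and 2 inhibitors higher, with a median difference of -0.29. Adrb3, the beta-3 receptor that starts lipolysis in rodent fat cells, read 777 and 872 CPM in mCherry SD, then 169.9 and 139 in mCherry HFD, 756 and 589 with Tert and 587 and 687 with TertCi on that diet. Only the mCherry HFD mice were low, and they overlapped with no other group. The difference on the diet was -2.39 ± 0.22 (SE, adjusted p = 0.000764), and -2.60 (adjusted p = 0.046) without mouse rep128. After thinning each nucleus to 1000 UMIs, 51.2 and 52.8% of nuclei had an Adrb3 UMI in mCherry SD, 21.1 and 12.8% in mCherry HFD, 51.7 and 40.3% in Tert HFD, and 40.8 and 41.8% in TertCi HFD, against 0.171 to 13.5% in macrophage nuclei. Unthinned, the shares were 80.4 and 79.4, 62.4 and 46.2, 80.2 and 67.3, and 78.7 and 82.2%. In free RNA the group mean of Adrb3 was 595 CPM in mCherry SD and 28.5 with the mCherry HFD mice.

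G0s2, an inhibitor of the lipase Pnpla2, went the other way with 88.8 and 84.4 CPM in mCherry SD, then 456 and 348 in mCherry HFD, 184 and 192 with Tert and 101 and 145 with TertCi on that diet. Both mCherry HFD mice were the highest of the 8, and the diet difference was 2.23 ± 0.23 (SE, adjusted p = 0.00112). The adenosine receptor Adora1, which lowers cyclic AMP, rose from 23.4 and 24.6 to 78.2 and 73.3 CPM, by 1.67 ± 0.27 (SE, adjusted p = 0.00602). Pde3b, the phosphodiesterase through which insulin restrains lipolysis, read 1553 and 1857 CPM in mCherry SD and 962 and 642 in mCherry HFD and fell by 1.07 on the log2 scale (adjusted p = 0.0351). The groups did not overlap for any of these 3 genes. Free RNA of Pde3b stood at 1201 CPM in mCherry SD and 205 in mCherry HFD.

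In the insulin list 4 of 16 genes fell and none rose, with a median of -0.58 beside -0.04 over all genes. Pik3r1, the regulatory subunit of the insulin-responsive lipid kinase, read 1754 and 1368 CPM in mCherry SD, then 363 and 334 in mCherry HFD, 378 and 495 with Tert and 491 and 605 with TertCi on that diet. All 6 mice on the high-fat diet lay below both mice on the standard diet, and the diet difference was -2.16 ± 0.23 (SE, adjusted p = 0.00138). Irs1, the docking protein of the insulin receptor, read 374 and 418 CPM in mCherry SD and 162 and 224 in mCherry HFD (-1.08 ± 0.21 SE, adjusted p = 0.0103). The adaptor Grb10 went from 230.3 and 210.2 to 51.6 and 73.3 CPM (-1.91, adjusted p = 0.00435) and the receptor Igf1r from 186 and 193 to 50.2 and 58.7 (-1.84, adjusted p = 0.00401). Free RNA of Pik3r1 stood at 832 CPM in mCherry SD and 232 in mCherry HFD, and that of Irs1 at 261 and 55.2. The insulin-responsive glucose transporter Slc2a4 did not pass at -0.82 (adjusted p = 0.202, or -1.51 without rep128).

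The growth hormone and STAT5 list had 11 of 15 genes tested, of which Cish and Jak2 fell and Bcl6 rose (median -0.48). Cish, a feedback inhibitor induced by STAT5, read 91.1 and 94.3 CPM in mCherry SD, then 5.02 and 3.67 in mCherry HFD, 2.15 and 8.37 with Tert and 2.65 and 5.61 with TertCi on that diet. All 6 mice on the high-fat diet, Tert and TertCi mice included, lay far below both mice on the standard diet. The difference between the mCherry groups was -4.28 ± 0.62 (SE, adjusted p = 0.00462), resting on 8 UMIs in mCherry HFD, with 84.7 and 2.90 CPM in free RNA. After thinning to 1000 UMIs, 7.31 and 10.1% of nuclei had a Cish UMI in mCherry SD and 0 to 0.917% in the other 6 mice, against 0 to 1.06% in macrophage nuclei of the 8 mice. Jak2 fell by 0.77 on the log2 scale (adjusted p = 0.0495). Socs2, another STAT5-induced inhibitor, read 13.3 and 12.8 CPM in mCherry SD and 0 and 7.33 in mCherry HFD and did not pass (-3.29, adjusted p = 0.0524, or -0.87 without rep128), while without mouse rep129, which leaves mouse rep128 with no UMI, it passed (adjusted p = 0.0262). Bcl6, a repressor known to be held down by growth hormone through STAT5, read 132 and 112 CPM in mCherry SD, then 295 and 345 in mCherry HFD, 409 and 333 with Tert and 510.0 and 399 with TertCi on that diet. Every mouse on the high-fat diet lay above both mCherry SD mice, and the diet difference was 1.38 ± 0.22 (SE, adjusted p = 0.00504).

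STAT factors bind the palindrome TTCNNNGAA, which reads the same on both strands, and it was looked for in the 250 bases before the start sites of 11 of the 15 list genes that had a RefSeq entry (GRCm38.p6). It was present for Bcl6, Socs3 and Prlr. Both Bcl6 windows are shown because this gene rose and holds 4 of the matches. They lie on the minus strand, at chr16:23988853-23989102, next to the first exon, and at chr16:23981284-23981533, before an alternative start and over no exon annotated by GENCODE. Sequences run 5' to 3' with each match in capitals, and the start site follows the last base.
Bcl6, first start: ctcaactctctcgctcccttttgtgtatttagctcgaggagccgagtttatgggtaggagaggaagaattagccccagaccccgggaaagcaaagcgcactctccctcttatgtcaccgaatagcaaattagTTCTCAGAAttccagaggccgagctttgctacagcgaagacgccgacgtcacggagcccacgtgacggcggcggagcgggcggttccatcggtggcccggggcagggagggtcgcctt
Bcl6, alternative start: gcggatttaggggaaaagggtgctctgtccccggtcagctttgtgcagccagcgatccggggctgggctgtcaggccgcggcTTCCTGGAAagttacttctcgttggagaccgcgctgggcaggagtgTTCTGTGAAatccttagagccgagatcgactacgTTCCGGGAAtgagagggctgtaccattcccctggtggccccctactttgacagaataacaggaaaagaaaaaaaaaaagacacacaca
The match of the first window begins 118 bases before the start, and those of the other window 168, 122 and 88 bases before it. Of 32536 windows of this length in the RefSeq table, 2291 (7.04%) held the motif and 104 (0.32%) held 2 or more. A match is a description of these letters and not a measured binding site.

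Fat synthesis genes did not move as 1 group on the diet. Of 16 tested genes 3 rose and 2 fell, with a median of 0.20. Acacb, which makes the malonyl coenzyme A that restrains fatty acid oxidation, fell from 524 and 337 to 69.6 and 51.3 CPM (-2.76 ± 0.35 SE, adjusted p = 0.00258), and Aacs, which activates acetoacetate, from 225 and 184 to 33.0 and 54.99 (-2.37, adjusted p = 0.00644). Free RNA of Acacb stood at 266 and 12.5 CPM and that of Aacs at 76.3 and 17.1. Insig1, which holds back SREBP processing, rose from 9.96 and 13.3 to 147 and 54.99 CPM (3.23, adjusted p = 0.00205, or 2.19 without rep128). The desaturase Scd2 (2.39, adjusted p = 0.0374, or 1.59 without rep128) and the citrate carrier Slc25a1 (1.59, adjusted p = 0.0412, or 0.91 without rep128) also rose. Acaca, which makes the malonyl coenzyme A for synthesis, read 1519 and 662 CPM in mCherry SD, then 387 and 312 in mCherry HFD, 556 and 1068 with Tert and 327 and 957 with TertCi on that diet, and at -1.63 (adjusted p = 0.109, or -0.95 without rep144) it did not pass, nor did the synthase Fasn at 0.85 (adjusted p = 0.56, or 1.75 without rep144 and 0.21 without rep146).

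Within a group, the 2 mice were often far apart for these genes. Fasn read 59.8 and 20.3 CPM in mCherry SD, then 77.4 and 58.7 in mCherry HFD, 40.8 and 154 with Tert and 16.4 and 64.5 with TertCi on that diet, and Me1, which supplies NADPH for synthesis, 342 and 189 CPM in mCherry SD, then 454 and 359 in mCherry HFD, 272 and 534 with Tert and 206 and 529 with TertCi on that diet. In each group 1 mouse was higher over the list: 14 of 16 genes were higher in mouse rep144 than in rep146 (median log2 difference 0.44), 13 in rep128 than in rep129 (0.32), 14 in rep136 than in rep134 (0.71) and 14 in rep140 than in rep138 (0.86). Over all genes tested, the same mice were higher in 47.9, 55.7, 49.8 and 50.9% of genes, with medians of -0.02, 0.13, 0.00 and 0.01. The order within the Tert and TertCi pairs was set after the values were seen. After thinning, 66.4 and 48.1% of nuclei had 3 or more UMIs of the list in mCherry SD, 44.0 and 41.0% in mCherry HFD, 48.8 and 58.0% in Tert HFD and 34.7 and 56.8% in TertCi HFD.

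**Figure D3:**
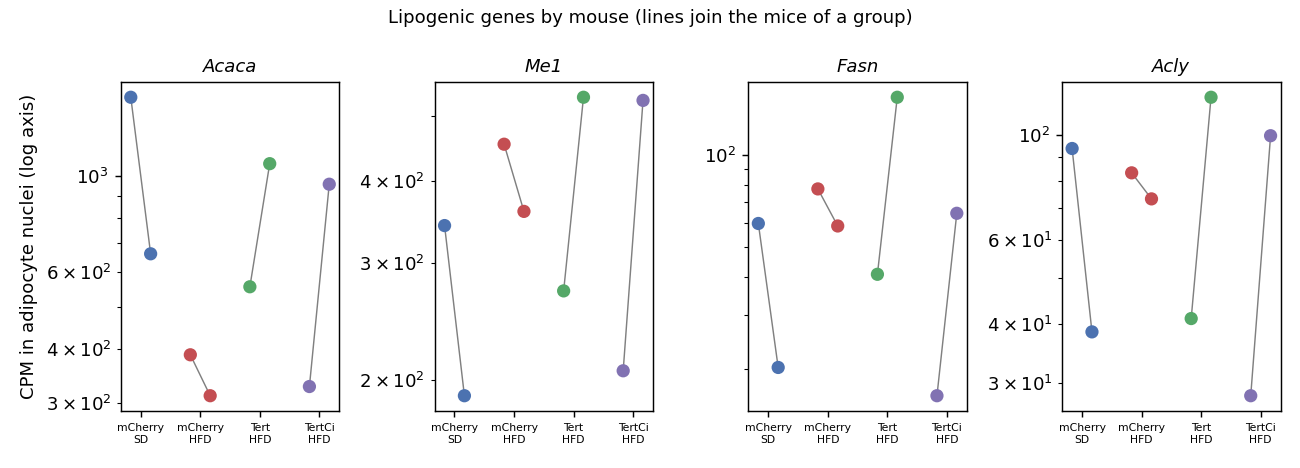
CPM of Acaca, Me1, Fasn and Acly in adipocyte nuclei, on log axes, with 1 point per mouse and a line joining the 2 mice of a group. In each of the 4 groups 1 mouse is the higher for all 4 genes.

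Among triglyceride and droplet genes 3 of 14 passed (median -0.06). The droplet coat Plin2 read 70.5 and 75.9 CPM in mCherry SD, then 309.7 and 279 in mCherry HFD, 123 and 103 with Tert and 72.7 and 109 with TertCi on that diet. Both mCherry HFD mice were highest, with a diet difference of 2.01 ± 0.23 (SE, adjusted p = 0.00173), and in free RNA Plin2 stood at 87.3 CPM in mCherry SD and 672 in mCherry HFD. Plin5, which ties droplets to mitochondria, rose (2.75, adjusted p = 0.0122, or 1.97 without rep128), and Mogat1, an acyltransferase of triglyceride synthesis, fell (-1.53, adjusted p = 0.0354). In fatty acid uptake 3 of 14 passed (median 0.31). Fabp5, a fatty acid carrier that macrophages also express, rose from 1.66 and 2.39 to 35.9 and 18.3 CPM (3.82, adjusted p = 0.00489, or 3.09 without rep128), with free RNA at 2.68 and 139 CPM. The lipoprotein receptor Vldlr rose (1.04, adjusted p = 0.0201). Slc27a1, a fatty acid transporter of adipocytes, fell from 529.9 and 617 to 211 and 191 CPM (-1.50, adjusted p = 0.00479), with free RNA at 611 and 218 CPM.

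Fatty acid oxidation genes passed upward in 4 of 13 cases and downward in none, with a median of 0.59. They were Acadm (0.97, adjusted p = 0.0434, or 0.16 without rep128), Hadha (0.89, adjusted p = 0.0373) and Etfdh (1.13, adjusted p = 0.0262) of the oxidation pathway and Pdk4, which spares glucose carbon. Pdk4 read 6.64 and 8.91 CPM in mCherry SD and 68.1 and 62.3 in mCherry HFD (3.06, adjusted p = 0.0243). Ucp1, the uncoupling protein of thermogenic fat, was too low to test, with 1 UMI in mCherry SD and 0 in mCherry HFD. In branched-chain amino acid breakdown 4 of 17 fell and none rose (median -0.32), namely Bcat2 (-1.09, adjusted p = 0.0189), Ppm1k (-1.24, adjusted p = 0.0378), Ivd (-1.06, adjusted p = 0.0238, or -1.78 without rep128) and Hibadh. The last read 378 and 325 CPM in mCherry SD and 179 and 125 in mCherry HFD (-1.16, adjusted p = 0.00947).

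Of 20 adipogenic transcription factors 5 fell and 1 rose (median -0.40). Ebf2, a factor of adipocyte identity, went from 708 and 595 to 125 and 216 CPM (-2.01 ± 0.27 SE, adjusted p = 0.00314). Ebf1 (-0.80, adjusted p = 0.0363), the glucocorticoid receptor Nr3c1 (-1.05, adjusted p = 0.0198), Klf9 (-0.67, adjusted p = 0.0378) and Klf3 (-1.01, adjusted p = 0.0302) fell by less. Esrrg, an orphan receptor of oxidative metabolism, rose, with 50.8 and 58.4 CPM in mCherry SD, then 374 and 249 in mCherry HFD, 177 and 159.6 with Tert and 163 and 159 with TertCi on that diet. The 3 sets of HFD mice did not reach down to the mCherry SD level, and the diet difference was 2.54 ± 0.22 (SE, adjusted p = 0.000646). Pparg, the central adipogenic factor, read 3262 and 2111 CPM in mCherry SD and 1509 and 1389 in mCherry HFD and did not pass (-0.89, adjusted p = 0.105), nor did Cebpa (1.04, adjusted p = 0.1). Among 13 adipokines tested, Nrg4 fell from 1164 and 965 to 627 and 414 CPM (-1.01, adjusted p = 0.0233) and Rarres2, which encodes chemerin, rose (1.47, adjusted p = 0.0302, or 0.38 without rep128). Free RNA of Nrg4 stood at 633 and 52.5 CPM and that of Rarres2 at 14.4 and 61.7. Lep, which encodes leptin, read 273 and 159 CPM in mCherry SD, then 469.6 and 359 in mCherry HFD, 281 and 473 with Tert and 277 and 451 with TertCi on that diet, and at 0.96 (adjusted p = 0.0969) it did not pass.

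In the list of adipocyte expansion and imprinted growth genes 4 of 11 rose and none fell (median 0.54). Peg3, a paternally expressed zinc finger gene, read 93.4 and 79.6 CPM in mCherry SD, then 495 and 367 in mCherry HFD, 674 and 823 with Tert and 790.3 and 285 with TertCi on that diet. All 6 mice on the high-fat diet lay above mCherry SD, and the diet difference was 2.34 ± 0.43 (SE, adjusted p = 0.0115). Mest, an imprinted gene known to mark expanding fat, rose from 29.3 and 54.4 to 316 and 158 CPM (2.55, adjusted p = 0.0337, or 1.86 without rep128), and Fgf1 rose by 1.14 (adjusted p = 0.00632). Igf2r rose (2.12, adjusted p = 0.00504), and in mCherry HFD its free RNA level of 695 CPM exceeded the 112 and 172 CPM of the nuclei.

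Stress and matrix genes passed in 1 direction. Of 18 p53 and stress genes 5 rose and none fell (median 0.99), and of 17 hypoxia, inflammation and matrix genes 6 rose and none fell (median 0.61). Cdkn1a, the p21 gene at whose locus all mice carry mCherry, read 0.207 and 2.01 CPM in mCherry SD, then 7.89 and 11.0 in mCherry HFD, 9.79 and 5.58 with Tert and 8.64 and 5.05 with TertCi on that diet. Its diet difference was 2.72 (adjusted p = 0.0482, or 2.04 without rep144 and 5.15 without rep146), and its free RNA stood at 4.53 CPM in mCherry SD and 29.6 in mCherry HFD. Atf3 (3.06, adjusted p = 0.00602, or 3.71 without rep146), Sesn2 (1.33, adjusted p = 0.0122), Cdkn2b (2.60, adjusted p = 0.0207, or 1.48 without rep128) and Phlda3 (1.15, adjusted p = 0.0435, or 0.53 without rep128) rose as well. Atf3 read 15.1 and 22.0 CPM in mCherry HFD against 129.5 in its free RNA. The scaffold gene Nedd9 rose from 193 and 109 to 733 and 495 CPM (2.04, adjusted p = 0.00394). The basement membrane collagens Col4a1 (0.97, adjusted p = 0.0131) and Col4a2 (1.18, adjusted p = 0.00799), Sparc (0.73, adjusted p = 0.0493) and the chemokine Ccl2 (3.00, adjusted p = 0.0244, or 0.85 without rep128, 2.40 without rep144 and 4.43 without rep146) also rose. Ccl2 stood at 86.3 CPM in free RNA of mCherry HFD, above the 45.2 and 7.33 CPM of its nuclei.

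**Figure D4:**
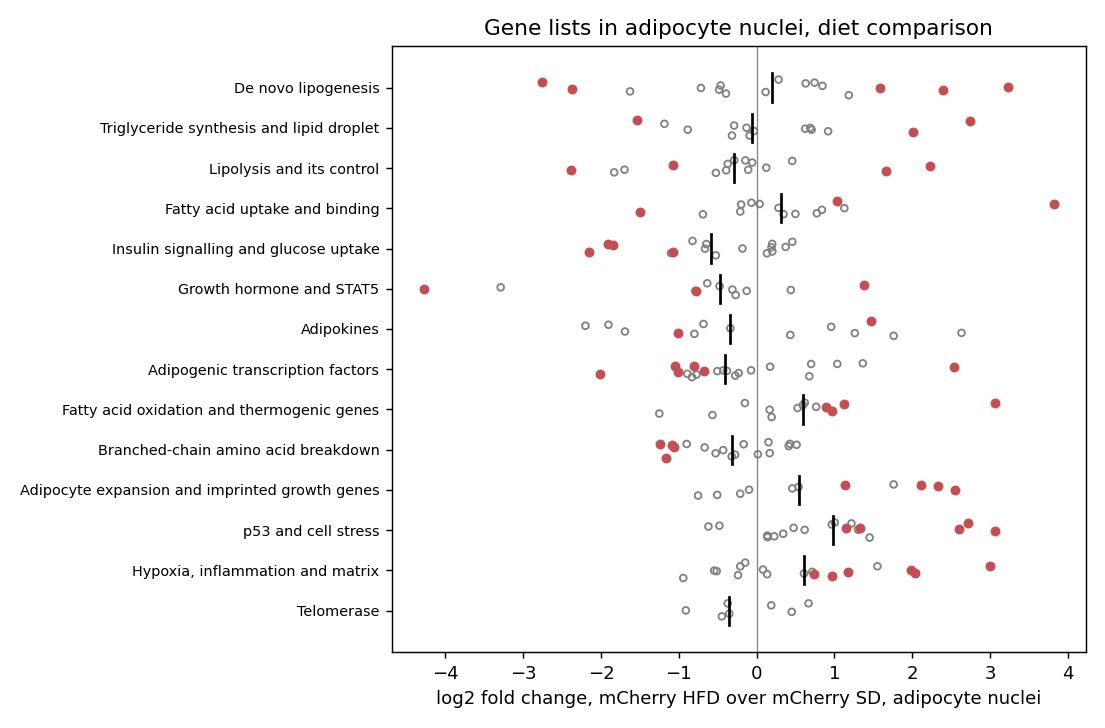
Log2 fold changes of mCherry HFD over mCherry SD for the tested genes of 14 lists, 1 point per gene, filled where the adjusted p was under 0.05, with the list's median as a black bar. The median is 0.99 in the p53 and stress list and -0.58 in the insulin list, beside -0.04 over all genes.

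Markers of other cells moved too. Of 11 macrophage genes tested 5 rose on the diet (Lyz2, Trem2, Gpnmb, Atp6v0d2, St18) and 2 fell (Cd163, F13a1). Gpnmb rose from 4.36 and 6.42 to 116 and 121 CPM in the nuclei, with 13.5 and 915 in free RNA, and F13a1 fell from 405 and 235 to 33.0 and 117 CPM in the nuclei with 521 and 559.9 in free RNA. The macrophage sum in the nuclei was 658 and 550 CPM in mCherry SD and 549 and 867 in mCherry HFD. Of 10 progenitor genes Fbn1, Dpp4 and Bicc1 fell, of 7 mesothelial genes Wt1, Muc16 and Bnc1, and of 8 endothelial genes Mecom. All 8 endothelial genes were lower in mCherry HFD (median -2.30), and their sum was 26.8 and 30.6 CPM there against 79.4 to 137 in the other 6 mice and 258 to 749.9 in free RNA. Vwf and Emcn were at 0 in mouse rep128, and Vwf, Mecom, Kdr and Egfl7 in mouse rep129. The rule capped the number of other-lineage genes detected in a nucleus, endothelial ones included, whatever its depth. Such a cap is stricter per UMI in deeper nuclei, and the mCherry HFD mice had the highest median UMIs of all mice. The endothelial, progenitor and macrophage levels are therefore not independent of the selection, and the part of the cap in them was not tested. The mesothelial sum was 124 and 86.3 CPM in mCherry SD against 13.1 to 35.9 in the other 6 mice. Of 5 lymphocyte genes tested Bank1 fell and Themis rose, and none of 5 mural genes passed. The sum over all 6 mural genes was 394 CPM in mouse rep146, beside 665 in its free RNA, against 18.1 to 53.6 in the other 7 mice. Their part in the results above was not tested.

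Among genes named by size, those with the largest rise on the diet and a level at least 2 times that of free RNA included Tph2 and Glra1, a glycine receptor subunit (6.36, adjusted p = 0.0064, or 7.12 without rep128 and 5.70 without rep129). Tph2, the neuronal enzyme of serotonin synthesis, read 1.24 and 0.766 CPM in mCherry SD, then 81.7 and 80.6 in mCherry HFD, 5.97 and 17.3 with Tert and 3.66 and 18.8 with TertCi on that diet. Itgad, an integrin chain, read 1.04 and 0.383 CPM in mCherry SD, then 58.8 and 25.7 in mCherry HFD, 11.2 and 8.93 with Tert and 1.25 and 0.841 with TertCi on that diet. Vwc2l read 0.830 and 6.22 CPM in mCherry SD, then 214 and 77.0 in mCherry HFD, 16.7 and 2.79 with Tert and 3.35 and 10.9 with TertCi on that diet. The mCherry HFD mice stood above every other mouse for these 3 genes with printed levels. Their diet differences were 6.40 ± 0.94 (SE, adjusted p = 0.00743) for Tph2, 6.18 ± 0.57 (SE, adjusted p = 0.000717, or 5.26 without rep128, 6.80 without rep144 and 5.43 without rep146) for Itgad and 5.29 ± 1.00 (SE, adjusted p = 0.0158, or 4.28 without rep128, 4.60 without rep144 and 7.47 without rep146) for Vwc2l. Slc5a7, the choline transporter of cholinergic neurons, was not among the 10 largest rises and was named by its difference from progenitor nuclei. It read 13.9 and 7.66 CPM in mCherry SD, then 249 and 128.3 in mCherry HFD, 113 and 94.3 with Tert and 85.5 and 52.7 with TertCi on that diet and rose by 4.24 (adjusted p = 0.00135, or 3.58 without rep128). Serpina1b (5.87, adjusted p = 0.00299, or 6.50 without rep146) and M1ap (4.60, adjusted p = 0.0046, or 2.88 without rep128) rose as well. Among the largest falls were 2 transporters. Slc2a3, a glucose transporter, read 208 and 127.6 CPM in mCherry SD, then 14.3 and 7.33 in mCherry HFD, 50.9 and 85.4 with Tert and 135 and 69.6 with TertCi on that diet (-3.71, adjusted p = 0.00477, or -4.54 without rep128), and Slc1a3, a glutamate transporter, 2481 and 1743 CPM in mCherry SD, then 311 and 495 in mCherry HFD, 539.8 and 754 with Tert and 575 and 556 with TertCi on that diet (-2.42, adjusted p = 0.0019). All mice on the high-fat diet lay below mCherry SD for Slc1a3, while for Slc2a3 1 TertCi mouse reached the mCherry SD range. Cachd1 (-1.78, adjusted p = 0.00728), Syt14 (-3.55, adjusted p = 0.0019) and Zyg11a also fell. Zyg11a read 67.2 and 58.6 CPM in mCherry SD, then 11.5 and 22.0 in mCherry HFD, 8.36 and 7.25 with Tert and 8.41 and 10.1 with TertCi on that diet, and all 6 mice on the high-fat diet were low. In free RNA of mCherry SD and mCherry HFD, Slc1a3 stood at 867 and 43.5 CPM, Slc2a3 at 78.9 and 25.5, Cachd1 at 873 and 91.5, and Zyg11a at 26.0 and 4.12.

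**Figure D5:**
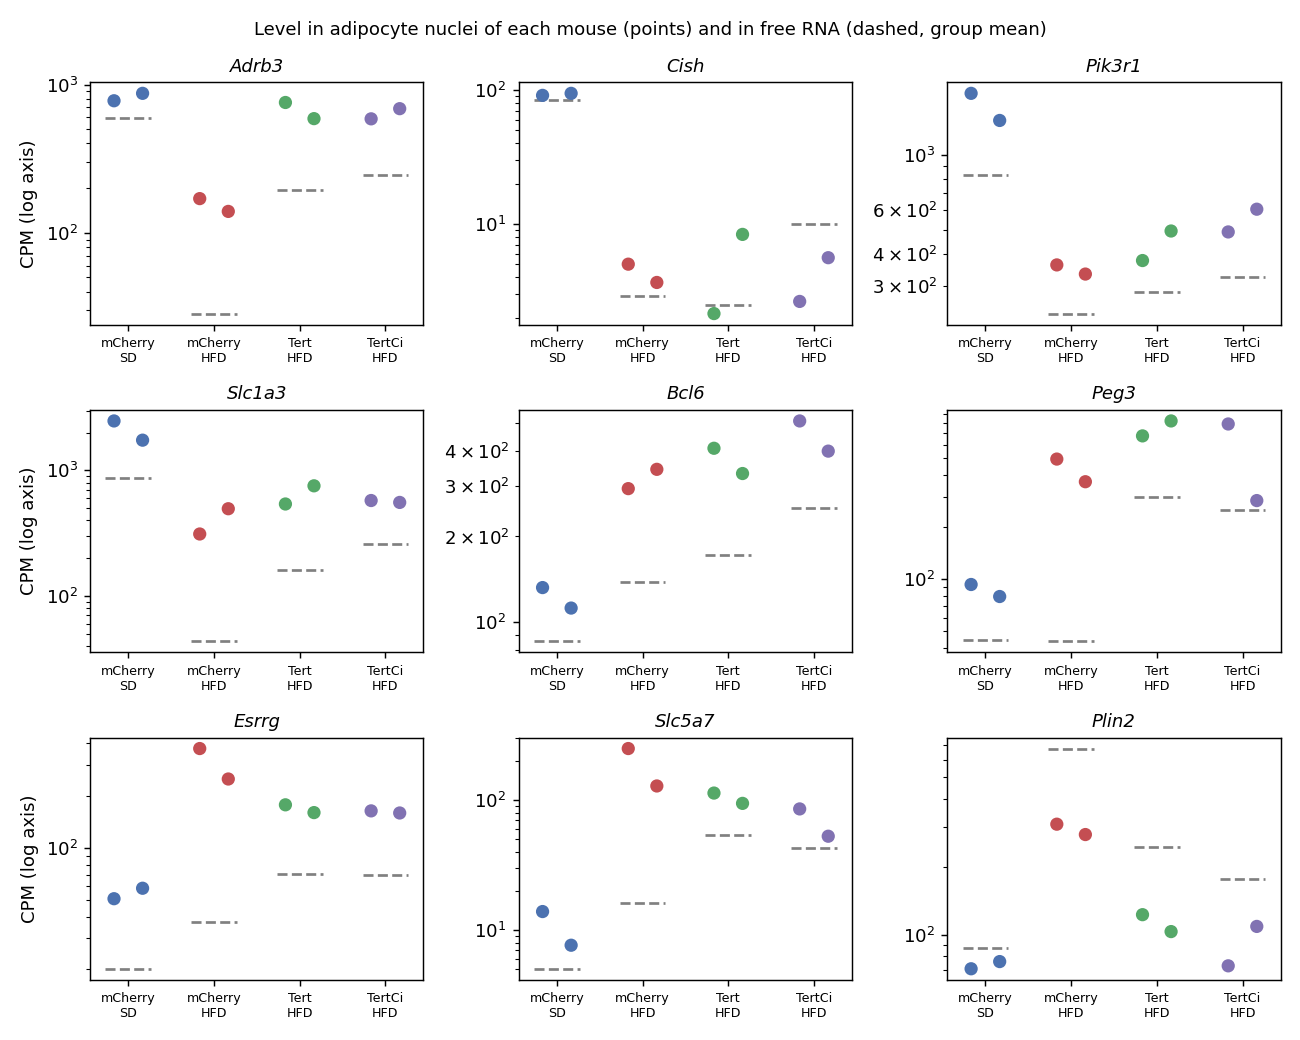
CPM in adipocyte nuclei of each of the 8 mice (points) and the group mean in free RNA (dashed lines), on log axes, for 9 genes. Adrb3 is low in the mCherry HFD mice alone, Cish, Pik3r1 and Slc1a3 are low in all 6 mice on the high-fat diet, and Plin2 and Esrrg are highest in mCherry HFD.

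The Tert HFD mice were compared with the mCherry HFD mice, both on the high-fat diet, to see what the Tert allele changed. Adrb3 was higher and Plin2 lower, and few other genes of the lists passed. Of the 14845 genes 65 passed (0.438%), 30 higher (0.202%) and 35 lower (0.236%), and without mouse rep128 or without mouse rep129 none did. DESeq2 called 590. Without genes near their free RNA level 7 were higher and 14 lower, 33.3% of calls higher in place of 46.2%. Adrb3 differed by 2.09 ± 0.22 (SE, adjusted p = 0.0255), the desaturase Scd1 by 1.10 ± 0.18 (SE, adjusted p = 0.0422) and Plin2 by -1.39 ± 0.23 (SE, adjusted p = 0.0423). Scd1 read 261 and 258 CPM in mCherry SD, then 194 and 179.6 in mCherry HFD, 387 and 420.1 with Tert and 397 and 389.8 with TertCi on that diet, so both groups with Tert or TertCi lay above both mCherry groups. It did not pass on the diet (-0.46, adjusted p = 0.101). G0s2 did not pass in this comparison (-1.12, adjusted p = 0.0654). Of the other lists, the progenitor gene Fbn1 rose and nothing else passed. Beside the median of 0.05 over all genes, list medians ran from -0.19 (p53 and stress, fatty acid oxidation) to 0.38 (transcription factors). Among markers of other cells, all 8 endothelial genes were higher in Tert HFD with none passing (median 2.64). The other medians ran from -0.36 (macrophage) to 0.67 (mesothelial). The rule's cap on other-lineage genes bears on the endothelial, progenitor and macrophage levels in this comparison too, and its part was not tested.

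By size, the largest rises in Tert HFD were Chst1, a sulfotransferase, Syt14 and Cadps, which primes vesicles for release. Chst1 read 249 and 178 CPM in mCherry SD, then 24.4 and 29.3 in mCherry HFD, 133 and 223 with Tert and 233 and 178 with TertCi on that diet. Only mCherry HFD was low, and the difference was 2.78 ± 0.36 (SE, adjusted p = 0.027). Free RNA of Chst1 stood at 15.4 CPM in mCherry HFD and 64.9 in Tert HFD, and that of Adrb3 at 28.5 and 195. Syt14 differed by 2.74 (adjusted p = 0.0422) and Cadps by 2.63 (adjusted p = 0.0452), followed by Nrbp2 (2.17, adjusted p = 0.0298), Podn (2.03, adjusted p = 0.0341) and Pygb, the brain form of glycogen phosphorylase (1.56, adjusted p = 0.0422). The largest falls were Gnal, a G protein subunit that couples receptors to cyclic AMP, Zwilch (-3.10, adjusted p = 0.027, or -3.84 without rep134) and Nhs. Gnal read 21.6 and 26.0 CPM in mCherry SD, then 94.6 and 98.97 in mCherry HFD, 15.5 and 3.91 with Tert and 2.88 and 7.29 with TertCi on that diet, lower in both groups with Tert or TertCi than in either mCherry group (-3.17 ± 0.54 SE, adjusted p = 0.0497, or -4.57 without rep134 and -2.58 without rep136). Nhs read 17.8 and 54.6 CPM in mCherry SD, then 197 and 238 in mCherry HFD, 29.4 and 35.7 with Tert and 26.9 and 21.9 with TertCi on that diet, and only mCherry HFD was high (-2.74, adjusted p = 0.0497).

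In the TertCi HFD mice 773 genes differed from mCherry HFD (5.21%), 335 higher (2.26%) and 438 lower (2.95%). Adrb3, 3 of 16 insulin signalling genes and 5 of 20 adipogenic factors rose, and Plin2, Plin5, G0s2 and 4 of 11 macrophage genes fell, while most members of these lists did not pass. With library totals alone, 90 were higher and 642 lower, so 12.3% of calls were higher in place of 43.3%, and the median of all genes moved from 0.04 to -0.34. Without genes near their free RNA level 50 were higher and 132 lower, which is 27.5% higher. Without mouse rep128 no gene passed, and without mouse rep129 20 did. Without TertCi mouse rep138 52 passed, and without mouse rep140 208.

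Adrb3 differed by 2.01 ± 0.22 (SE, adjusted p = 0.00605). G0s2 (-1.73 ± 0.22 SE, adjusted p = 0.00973), Plin2 (-1.71 ± 0.23 SE, adjusted p = 0.0102) and Plin5 (-2.39, adjusted p = 0.0393, or -1.60 without rep128) fell, as did Fabp5 (-2.90, adjusted p = 0.0265, or -2.13 without rep128, -2.10 without rep138 and -3.70 without rep140). Plin2 in free RNA stood at 672 CPM in mCherry HFD and 177 in TertCi HFD. In the insulin list 3 of 16 rose and none fell (median 0.47 beside 0.04 over all genes), namely Grb10 (1.55, adjusted p = 0.0218), Igf1r (1.15, adjusted p = 0.0393) and the transcription factor Foxo1 (1.12, adjusted p = 0.045). Pik3r1 read 491 and 605 CPM in TertCi HFD, still below the 1754 and 1368 of mCherry SD. Slc27a1 rose (1.17, adjusted p = 0.0265).

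Of the 20 adipogenic factors 5 rose and Esrrg fell (median 0.60). Zbtb16, a zinc finger factor responsive to glucocorticoids, read 1581 and 1021 CPM in mCherry SD, then 929 and 905 in mCherry HFD, 1868 and 1345 with Tert and 3233 and 2179.9 with TertCi on that diet and rose by 1.56 ± 0.29 (SE, adjusted p = 0.023). Its TertCi HFD mice were also above the mCherry SD mice. Ebf2 (1.48, adjusted p = 0.0229), Ebf1 (0.98, adjusted p = 0.0377), Nr3c1 (1.00, adjusted p = 0.0452) and the corepressor Tle3 (1.09, adjusted p = 0.0318) rose too, and Esrrg differed by -0.98 (adjusted p = 0.0346). In the lipogenesis list Scd1 (1.06 ± 0.18 SE, adjusted p = 0.0166) and Thrsp (0.92, adjusted p = 0.0494) rose among 16. Single calls in other lists were Hibadh (1.10, adjusted p = 0.0261), Plagl1 (1.52, adjusted p = 0.0261) and Sesn1 (1.04, adjusted p = 0.0247) upward, and Igf2r (-1.98, adjusted p = 0.0164) and Ccl2 (-3.62, adjusted p = 0.0348, or -1.42 without rep128 and -2.98 without rep138) downward. The macrophage genes Lyz2, C1qa, Trem2 and Gpnmb fell among 11 tested, and Gpnmb in free RNA stood at 915 CPM in mCherry HFD and 111 in TertCi HFD. Bicc1, Mecom and Bank1 rose in the progenitor, endothelial and lymphocyte lists, and 7 of 8 endothelial genes were higher (median 2.25). For the endothelial, progenitor and macrophage genes the part of the rule's cap on other-lineage genes was again not tested. In the growth hormone, adipokine, fatty acid oxidation, telomerase, mesothelial and mural lists no gene passed.

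By size, Itgad (-5.35 ± 0.53 SE, adjusted p = 0.00359, or -4.47 without rep128), Vwc2l (-4.62, adjusted p = 0.0433, or -3.51 without rep128, -3.79 without rep138 and -5.48 without rep140) and Gnal (-4.40, adjusted p = 0.0104, or -3.68 without rep138 and -5.00 without rep140) fell most among the named genes with a symbol. Cyp2e1, a cytochrome that fat cells express, read 404 and 492 CPM in mCherry SD, then 11.5 and 0 in mCherry HFD, 65.4 and 27.9 with Tert and 55.3 and 72.1 with TertCi on that diet and rose by 2.79 (adjusted p = 0.0375), with both groups with Tert or TertCi well below mCherry SD. Mouse rep129 had no UMI, and without mouse rep128 the adjusted p was 0.216, and free RNA stood at 1.54 and 23.5 CPM in mCherry HFD and TertCi HFD. Cacna2d3 (2.28, adjusted p = 0.0166, or 4.40 without rep128), Lrrc4c (2.00, adjusted p = 0.0134, or 2.97 without rep128) and Trabd2b (1.87, adjusted p = 0.0348) were also among the largest rises.

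Between the Tert HFD and TertCi HFD mice no gene passed edgeR's quasi-likelihood test (0.0%). Of the 14845 genes, 609 had an unadjusted p under 0.05 in that test. Their share is not above the 0.05 that such a test gives when no gene differs. DESeq2 called 1, and 41 passed without the low-count filter (21 higher and 20 lower). The count of 0 does not show that the 2 alleles act alike. Adrb3, for example, read 756 and 589 CPM in Tert HFD and 587 and 687 in TertCi HFD, and the difference was 0.08 ± 0.20 (SE, adjusted p = 1.0). Itgad read 11.2 and 8.93 CPM in Tert HFD and 1.25 and 0.841 in TertCi HFD, and differed by 3.16 ± 0.52 (SE) without passing.

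Telomerase itself was hardly measurable. Tert read 3.32 and 3.26 CPM in mCherry SD, then 2.15 and 0 in mCherry HFD, 1.67 and 2.79 with Tert and 3.27 and 3.65 with TertCi on that diet, which is 50, 3, 12 and 55 UMIs per group in that order. No comparison passed for Tert. The mCherry sequence had 1 UMI in all adipocyte nuclei together, in a TertCi HFD mouse. The label could therefore not be checked on the allele's own RNA in these nuclei.

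The effects in adipocyte nuclei were set against those in 14049 progenitor nuclei of the same mice, with each mouse as a block. A difference between the 2 kinds of nuclei passed in 1119 of 17097 genes for the diet (6.55%), 403 for Tert (2.36%) and 628 for TertCi (3.67%). Of the 15 lipolysis genes 8 passed for the diet, among them Adrb3 (3.92), G0s2 (2.48) and Adora1 (4.22), a positive value meaning a more positive diet effect in adipocyte nuclei. Of 16 insulin genes 6 passed, with Pik3r1 at -1.07 and Igf1r at -0.99. In the growth hormone list Bcl6 passed (1.20), while none of 19 p53 and stress genes did. Adrb3 itself stood at 89.6 CPM in progenitor nuclei of mCherry SD and 1.19 in those of mCherry HFD, and the part of free RNA in this was not tested.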

How the data were processed

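Nuclei of snap-frozen visceral fat were sorted by DNA stain and their RNA was captured with droplet 3' chemistry, per the labels. The deposited matrices hold raw UMI counts for all barcodes, with or without a nucleus. The authors ran Cell Ranger 7.1.0, per the file headers, while the submitters' processing notes name Cell Ranger 5.0.1, bcl2fastq 2.20.0 and mm39. Whether intronic reads were counted is not given in the sources used here. Python 3.11.15, numpy 2.4.6, scipy 1.17.1 and pandas 2.3.3 applied the rule, and matplotlib 3.10.9 drew the figures. No doublet caller was run, and the limit of 3 other-lineage genes stood in its place. UMIs were summed per mouse and tested in R 4.3.3 with edgeR 4.0.16 (quasi-likelihood, TMM, filterByExpr, all 4 groups in 1 fit), with DESeq2 1.42.0 as an alternative. The tests were tried on simulated data. P-values of the gene tests measure the spread between the 2 mice of a group, pooled over the 4 groups and moderated across genes. They do not give the spread of 1 pair alone. CPM of genes in nuclei use the TMM-scaled totals, and marker sums and free RNA use plain totals. Progenitor and macrophage nuclei had at least 2 of their own 3 genes of the rule, the largest sum for them, fewer than 4 adipocyte genes and fewer than 3 genes of other lineages. Of the adipocyte nuclei 143 had a barcode that also passed in another library. Samples were processed 2 at a time in randomised order, per the labels, but which mice shared a batch is not given, so no batch term was fitted and a part of batch in the results was not tested.

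The rule for the nuclei, the gene lists and the tests were chosen with earlier results of these data known. Genes were named from the lists or, per comparison, as the 10 largest rises and falls among those passing, with at least 20 CPM in the higher group, groups that do not overlap, and a level at least 2 times that of free RNA. The same conditions named the 10 largest differences from progenitor nuclei, with the sign of that difference setting which group counts as the higher. Alternatives varied the test, filter, scaling, nuclei, rule, doublets, depth, free RNA and mice. Single genes of the lists that are counted in a list or a marker sum but not named are not reported here.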

Additional observations from a re-analysis of the deposited data

Results flagged for a closer look

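For each of the 3 comparisons with mCherry HFD, the 10 genes whose effect differed most between adipocyte and progenitor nuclei, by edgeR's quasi-likelihood test of that difference with mice as blocks, are given with the log2 difference of the effects, a positive value meaning a more positive effect in adipocyte nuclei. For the diet these were Vwc2l (6.02), Sez6l (5.38), the potassium channel Kcnc2 (5.01), Ccdc144b (4.73), Lgals12 (4.69), Pla2g4e (4.66), the cation channel Trpc4 (4.65), Slc5a7 (4.61), Casq1 (4.34) and Adora1 (4.22). In progenitor nuclei Lgals12 (-4.96), Sez6l (-2.49), Adora1 (-2.45) and Kcnc2 (-2.33) fell on the diet, while Trpc4, Slc5a7 and Casq1 did not pass. Vwc2l, Ccdc144b and Pla2g4e were too low there to test, at 1.79 CPM or less in both mCherry groups. For Tert the genes were Shisa6 (-4.74), Vwc2l (-4.65), 7SK.ENSMUSG00002075078 (-4.52), Kcnc2 (-3.66), Ccn5 (-3.51), Nhs (-3.47), Tph2 (-3.35), Ctcfl (-3.04), Slc5a7 (-2.77) and Pnpla3 (-2.63). Among them Vwc2l, 7SK.ENSMUSG00002075078 and Tph2 were too low in progenitor nuclei for an effect to be tested there. They read 0.817, 0.126 and 1.42 CPM in progenitor nuclei of mCherry HFD and 1.17, 0.352 and 2.14 in those of Tert HFD. For TertCi the genes were Vwc2l (-5.40), Shisa6 (-5.01), Gnal (-4.10), Nhs (-3.87), Kcnc2 (-3.77), Ctcfl (-3.51), Slc5a7 (-3.11), the thyrotropin receptor Tshr (-3.03), Ccn5 (-3.02) and Trpc4 (-3.00). Vwc2l was again too low to test in progenitor nuclei, at 0.817 CPM in mCherry HFD and 0.857 in TertCi HFD. The differences listed turn on single mice. Without mouse rep128, 1 of the 10 differences passed for the diet, 0 of 10 for Tert and 3 of 10 for TertCi, and 6, 6 and 5 of them moved by over 1.5 times. For the diet 5 passed and 6 moved without mouse rep146, and 7 passed and 3 moved without mouse rep144. For Tert 4 passed and 7 moved without mouse rep134, and for TertCi 7 passed and 5 moved without mouse rep138.

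Lgals12, which codes for a galectin of lipid droplets, read 49.0 CPM in progenitor nuclei of mCherry SD and 1.80 in those of mCherry HFD, and 445 and 36.6 CPM in free RNA. Within adipocyte nuclei its diet difference was -0.36 and did not pass edgeR's quasi-likelihood test (adjusted p = 0.316). From mCherry SD to mCherry HFD, Pnpla3 went from 29.9 to 3.65 CPM in progenitor nuclei and from 239 to 47.7 in free RNA. Tshr went from 85.4 to 8.05 and from 426 to 114 CPM. Pnpla3 was flagged for Tert and Tshr for TertCi, so these levels give only the mCherry HFD side of their differences. Within adipocyte nuclei Pnpla3 did not pass for Tert. The part of free adipocyte RNA in the flagged differences of these 3 genes was not tested.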

How the results depend on the processing

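Directions of the named genes were the same in the alternatives run for them, except for 2 effects against progenitor nuclei with 1 mouse left out. Sizes within adipocyte nuclei held less well. With the rule on thinned barcodes, 21 of 72 named diet differences moved by over 1.5 times and 14 no longer passed. For Tert 6 of 19 moved and 4 no longer passed, and for TertCi 15 of 41 and 8. With fewer than 2 other-lineage genes 11, 4 and 6 moved, and 20, 6 and 17 no longer passed, in the same order. No other setting that kept all mice moved as many. Thinned sums gave a value for 49 of 72 genes for the diet, 16 of 19 for Tert and 28 of 41 for TertCi, and the effects against progenitor nuclei were run only with DESeq2, without the filter, with RLE scaling, with at least 2000 UMIs and with each mouse left out. The diet effect of Pla2g4e ran from -1.36 (without mouse rep146) to 5.17, and the TertCi effect of Ctcfl from -3.84 to 0.88 (without mouse rep138). The counts were less stable. For the diet, 3525 genes passed without the low-count filter, 1327 with fewer than 2 other-lineage genes, 531 with sums thinned to the smallest library and 513 without genes near their free RNA level (469 higher, 44 lower). For Tert, 590 passed with DESeq2, 1307 without the filter, 26 with library totals alone, 37 with at least 2000 UMIs, 32 with the library UMI minimum, 364 with the rule on thinned barcodes, 161 with thinned sums and 21 without genes near free RNA. For TertCi, 2230 passed without the filter, 2388 with the rule on thinned barcodes, 352 with fewer than 2 other-lineage genes, 253 with thinned sums and 182 without genes near free RNA. Tert against TertCi gave 1 with DESeq2 and 41 without the filter. Against progenitor nuclei, DESeq2 called 717 (diet), 261 (Tert) and 357 (TertCi), and for Tert 658 passed without the filter and 254 with at least 2000 UMIs. The exact permutation p of the share was 0.00952 with the library UMI minimum 0.0381 both with the rule on thinned barcodes and with at least 5 of 8 markers, and 0.105 with at least 2000 UMIs. The cause of these changes was not tested, beyond the smaller number of nuclei or UMIs that some settings leave.

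With each mouse left out in turn, 14 to 2803 genes passed for the diet, 0 to 732 for Tert, 0 to 1414 for TertCi and 0 to 1 for Tert against TertCi. Against progenitor nuclei 260 to 1791 (diet), 93 to 810 (Tert) and 205 to 1136 (TertCi) passed, and the exact permutation p of the share was 0.00952 to 0.0952. The diet count was 1095 without mouse rep144. The Tert count was 366 without mouse rep144, 312 without mouse rep146, 732 without mouse rep134 and 9 without mouse rep136. Of the 72 named genes that passed for the diet, 2 passed without mouse rep128 and 46 without mouse rep129. Without mouse rep128 the diet difference moved by over 1.5 times for 23 of them. None of the 19 named for Tert passed without either, and of the 41 named for TertCi 0 and 3 did. Where a mouse is left out, its group's lone mouse is assumed to vary like the other groups. No paired analysis was possible between the groups because the mice carry different numbers and which of them shared a batch is not given. The mouse was a block only between its own adipocyte and progenitor nuclei. The 39 nuclei and 228407 UMIs of mouse rep129 limit what the mCherry HFD comparisons can show of low genes.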

Other observations

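Taco1, which codes for an activator of mitochondrial cytochrome oxidase translation, had 1 of the largest spreads within a group, in CPM and not in fold, among the genes named by size. In adipocyte nuclei it read 2074 and 1088 CPM in mCherry SD, then 105 and 231 in mCherry HFD, 602 and 4098 with Tert and 2306 and 3914 with TertCi on that diet. The 2 Tert HFD mice lay far apart. In progenitor nuclei the group means were 989, 108, 933 and 1077 CPM in the same order.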
